A study of Saccharomyces cerevisiae with 3 samples.

Results

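The 33 genes described here encode the main chaperones and heat shock proteins of Saccharomyces cerevisiae and the transcription factor gene HSF1, and they were chosen by their gene symbols in the platform's probe annotation. All 33 had spots, 66 in all, among 5543 named genes with 11146 spots. By the home of their product 22 were cytosolic, 6 mitochondrial and 4 of the endoplasmic reticulum, and HSF1 stood apart as a regulator. A value on all 3 arrays was available for 30 members, against 3579 of all genes. A RefSeq gene table of the R64 assembly held all 33 under the same symbols.

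RNA was compared between 2 strains of the W303 background on 3 two-colour arrays. One strain made War1 and the other War1K762R, a form named for an exchange of lysine for arginine, and in both the gene stood behind the GAL1 promoter, which galactose switches on. Both strains grew at 30 °C in rich medium with 2% raffinose to an OD600 of 0.8 and were harvested 1 h after 2% galactose was added. The labels do not say whether the strains also kept a WAR1 gene of their own, and they name no heat or other stress. Each array set 1 culture of each strain against the other, and the design text calls the arrays biological repeats. War1K762R carried Cy5 on replicates 1 and 2 and Cy3 on replicate 3, the dye swap. Values are median-centred log2 ratios of War1K762R over War1. That direction is likely and not certain, because it takes the scanner to have divided Cy5 by Cy3, a formula that was not stated. With the inverse formula every sign would turn, and all sizes and tests would stay.

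Chaperones help proteins reach and keep their fold. Hsp70 proteins bind exposed hydrophobic stretches in a cycle of ATP binding and hydrolysis, which J proteins speed up and nucleotide exchange factors reset. Hsp90 acts later, on a narrower set of clients, with the help of co-chaperones. Hsp104 pulls aggregates apart, and small heat shock proteins gather misfolded proteins until they can be refolded. In yeast the transcription factor Hsf1 drives many of these genes at rest and under heat, Msn2 and Msn4 add a general stress response, and in the endoplasmic reticulum Ire1 and Hac1 run the unfolded protein response.

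Replicates 1, 2 and 3 had values on 12277, 12112 and 7367 of 13056 spots, so that replicate 3 lacked 43.6%. Over the genes tested the ratios of the arrays correlated with Pearson's r from 0.179 to 0.311, and the median SD of a gene between arrays was 0.20. After centring on all spots the 3579 genes had medians of 0.07, 0.06 and 0.006 on the arrays, so 0 lies slightly below the middle of the genes on replicates 1 and 2. PDR12, the War1 target that expels weak acid anions, had log2 ratios of 1.41, 0.95 and 0.52, and WAR1, whose spots read both forms, had 0.74, 0.12 and 0.19. A ratio from bulk RNA does not separate a change in all cells from a change in some of them.

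Of the 30 members tested, 0 passed in either direction (limma, adjusted p threshold 0.05), where 0.335% of all genes tested were called higher and 0.0279% lower. At an unadjusted p under 0.05, 6 members lay higher (limma; 11.1% of all genes tested) and 1 lower (2.68%). The 6 were the 4 cytosolic Hsp70 genes SSA1, SSA2, SSA3 and SSA4, the mitochondrial Hsp70 gene SSC1 and the mitochondrial chaperonin gene HSP60. The 1 was SIS1, a J protein gene. On all 3 arrays 8 members were positive and 4 negative, where 24.7% and 13.5% of all genes tested were, which is close to the members' own shares. The median of the members' means was 0.05, the same as that of all genes tested, and the members ranged from −0.30 to 0.60. For 23 of the 30 the 95% interval of the mean lay inside 1.5-fold on both sides. The other 7 were SSA1, SSA2, SSA3, SSA4, HSP60, SSC1 and HSP12. The share of all genes tested with such an interval was not counted, so the 23 are not a trait of chaperone genes.

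**Figure D1:**
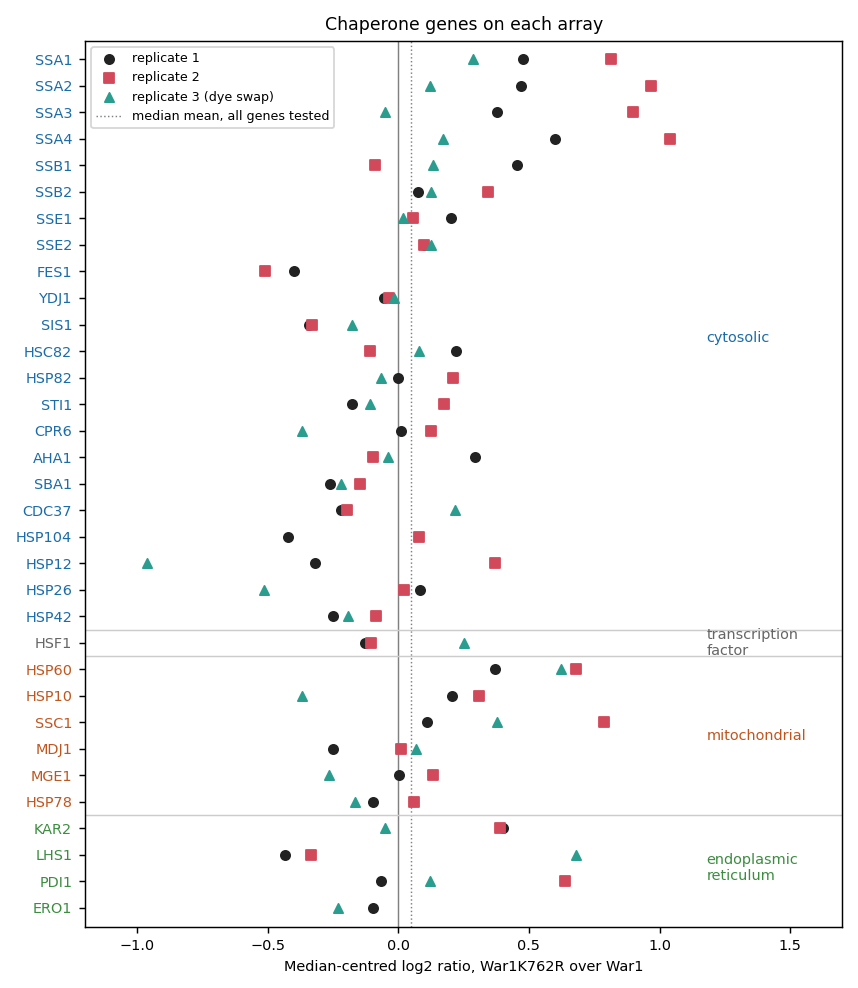
Median-centred log2 ratio of War1K762R over War1 (horizontal axis) of each of the 33 members, with 1 symbol per array and gene names coloured by compartment. The SSA genes lie to the right on replicates 1 and 2, HSP60 lies between 0.37 and 0.68, and HSP12 spreads from −0.96 to 0.37.

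The Hsp70 genes of the Ssa family do the general folding work of the cytosol. SSA1 (YAL005C), expressed in unstressed cells, had log2 ratios of 0.48, 0.81 and 0.29 in replicates 1, 2 and 3. SSA2 (YLL024C), the other constitutive member, had 0.47, 0.97 and 0.12. Both were positive on every array and highest on replicate 2. The heat-inducible SSA4 (YER103W) had 0.60, 1.04 and 0.17, and SSA3 (YBL075C), also inducible, had 0.38, 0.90 and −0.05. All 4 genes thus ran in one order, with replicate 2 above replicate 1 and replicate 1 above the dye swap. Both the constitutive and the inducible genes showed this order.

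As means these were 0.60 ± 0.43 for SSA4 (SD, n = 3, 1.52-fold), 0.53 ± 0.27 for SSA1 (1.44-fold), 0.52 ± 0.42 for SSA2 (1.43-fold) and 0.41 ± 0.47 for SSA3 (1.33-fold). None passed, with limma adjusted p of 0.134, 0.127, 0.204 and 0.318. SSA4 ranked 51 of 3579 genes from the highest mean, SSA1 90, SSA2 97 and SSA3 197. On replicate 2 the 4 genes lay between the percentiles 96.7 and 98.4 of all genes tested. On the dye swap SSA1 was at percentile 85.0, SSA4 at 73.6, SSA2 at 67.0 and SSA3 at 42.1. With a dye term in the fit the means were 0.50 for SSA4, 0.47 for SSA1, 0.42 for SSA2 and 0.29 for SSA3, and none passed (lowest adjusted p = 0.247). SSA4 passed without replicate 3 (0.82, adjusted p = 0.0365), though not when the same 3579 genes were used (adjusted p = 0.0896). Over all settings tried its limma adjusted p ran up to 0.902, with replicate 3 turned once more, against the direction read from rounding. In the other settings it ran up to 0.489, without replicate 2. Without replicate 2 the means were 0.39 for SSA4, 0.38 for SSA1, 0.29 for SSA2 and 0.16 for SSA3.

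The paired spots of these genes can be set beside the gaps between arrays. SSA4 had 0.69 and 0.51 on replicate 1 and 1.06 and 1.02 on replicate 2. On the dye swap the spots of SSA3 had 0.16 and −0.26 and those of SSA2 −0.01 and 0.25. The positive value of SSA2 there thus rests on 1 of its spots. SSA1 and SSA2 differed by 0.01 ± 0.16 as a mean over the arrays, and SSA4 exceeded SSA3 by 0.20 ± 0.04, in the same direction on all 3 arrays. The Ssa genes are close copies of one another, and whether their spots read each other's transcripts was not tested.

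SSB1 (YDL229W) and SSB2 (YNL209W) encode the nearly identical Hsp70 proteins that sit on the ribosome and meet nascent chains. SSB1 had 0.45, −0.09 and 0.13 and SSB2 had 0.08, 0.34 and 0.12. The order of the pair turned between replicates 1 and 2, and their means were alike at 0.17 ± 0.27 and 0.18 ± 0.14 (adjusted p = 0.608 and 0.523). Cross-reading of spots was not tested for this pair, nor for the similar Hsp90 genes HSC82 and HSP82. SSE1 (YPL106C) and SSE2 (YBR169C), the Hsp110 genes whose products reset Hsp70, had means of 0.09 ± 0.10 and 0.11 ± 0.02. SSE2 had 0.10, 0.10 and 0.13, with a 95% interval from −0.15 to 0.37, but on replicate 3 its spots had −0.01 and 0.26. FES1 (YBR101C), another exchange factor gene of cytosolic Hsp70, had −0.40 and −0.51 on replicates 1 and 2 and no value on replicate 3. In the fit to genes on at least 2 arrays its mean was −0.46 and did not pass (limma adjusted p = 0.178).

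SIS1 and YDJ1, the 2 cytosolic J protein genes among the members, had no positive value on any array. SIS1 (YNL007C), whose essential product hands substrates to Ssa proteins, had −0.34, −0.33 and −0.18. It lay below 0 on every array, with a mean of −0.28 ± 0.09 (adjusted p = 0.321). YDJ1 (YNL064C), the most abundant cytosolic J protein gene, had −0.05, −0.03 and −0.02, the smallest spread among the arrays but for SSE2. Its spots disagreed on replicate 2, at 0.16 and −0.23, so that closeness rests on averaged spots.

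Both Hsp90 genes had means close to the median of all genes tested. HSC82 (YMR186W), the constitutive gene, had 0.22, −0.11 and 0.08, and HSP82 (YPL240C), the inducible one, had −0.003, 0.21 and −0.07. Neither had one sign on all arrays, and their means of 0.06 ± 0.17 and 0.05 ± 0.14 had 95% intervals from −0.21 to 0.34 and from −0.23 to 0.32. These intervals leave out a difference of 1.5-fold.

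Of the 5 Hsp90 co-chaperone genes SBA1 (YKL117W), the yeast p23 that holds the closed form of Hsp90, was the only one with a single sign. It had −0.26, −0.15 and −0.22, a mean of −0.21 ± 0.06 (adjusted p = 0.45). STI1 (YOR027W), which bridges Hsp70 and Hsp90, had −0.18, 0.18 and −0.11. CPR6 (YLR216C), a prolyl isomerase gene, had 0.01, 0.13 and −0.37. AHA1 (YDR214W), whose product stimulates the Hsp90 ATPase, had 0.30, −0.10 and −0.04, and CDC37 (YDR168W), which serves kinase clients, had −0.22, −0.20 and 0.22. Each of these 4 changed sign between arrays, and their means ran from −0.08 to 0.05.

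The other members classed here as heat-inducible had lower means than SSA3 and SSA4. SSE2 at 0.11 and HSP82 at 0.05 were the highest of those tested. That class was set by hand and does not hold SSA1, HSP60, SSC1 or KAR2. HSP12 (YFL014W), a small membrane-associated stress protein gene, had −0.32, 0.37 and −0.96. This was the widest spread of all members, with a mean of −0.30 ± 0.67 (adjusted p = 0.524), and on the dye swap HSP12 was at percentile 0.07 of all genes tested. Its spots there had −0.83 and −1.10. HSP26 (YBR072W), a small heat shock protein gene, had 0.08, 0.02 and −0.51, so it too was lowest on the dye swap. HSP42 (YDR171W), the small heat shock protein gene active in unstressed cells, had −0.25, −0.08 and −0.19. HSP104 (YLL026W), the disaggregase gene, had −0.42 and 0.08 on replicates 1 and 2 and no value on replicate 3, and its mean of −0.17 did not pass (adjusted p = 0.649). Over the 6 heat-inducible members tested other than SSA3 and SSA4 the median of the means was −0.10, and 0 of them passed. HSF1 (YGL073W) itself had −0.13, −0.11 and 0.25, a mean of 0.005 ± 0.21 (95% interval from −0.28 to 0.29).

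**Figure D2:**
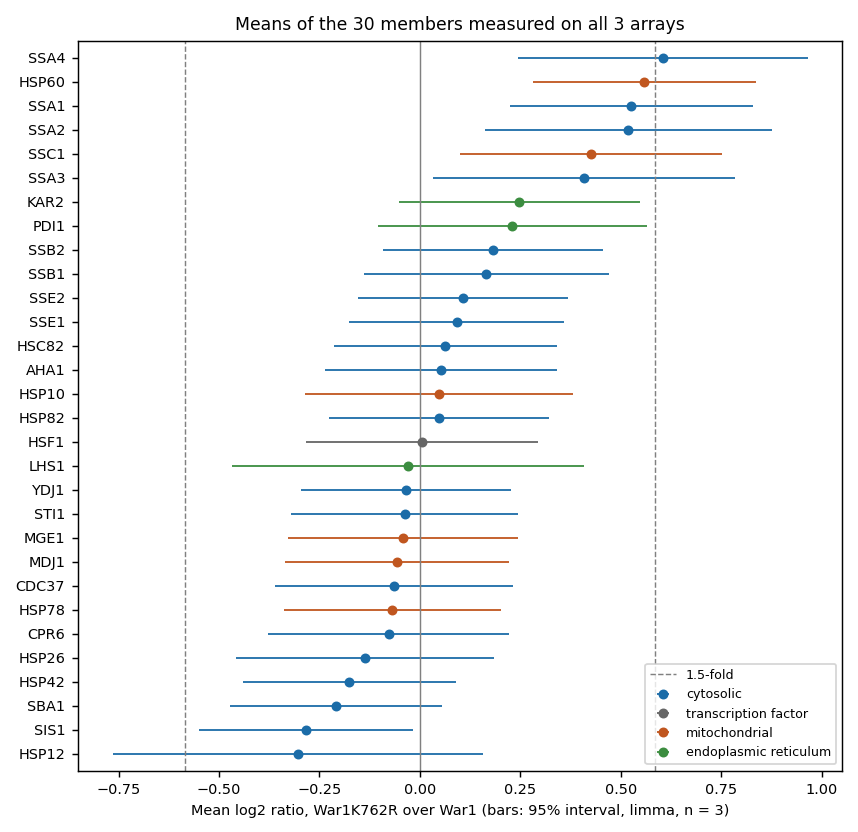
Mean log2 ratio of War1K762R over War1 (horizontal axis) of the 30 members measured on all 3 arrays, ordered by mean and coloured by compartment, with bars for the 95% interval from limma and dashed lines at 1.5-fold. The intervals of SSA1, SSA2, SSA3, SSA4, HSP60 and SSC1 lie above 0 and that of SIS1 lies below it, before any adjustment for the number of genes, and 23 intervals include 0.

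Among the mitochondrial members HSP60 and SSC1 lay apart from their partners. HSP60 (YLR259C), the chaperonin that folds imported proteins in the matrix, had 0.37, 0.68 and 0.62. It stood at percentiles 85.7, 94.9 and 98.4, and HSP60 and SSA1 were the 2 members in the highest 20% of genes tested on every array. The share of all genes tested that lay there on every array was not counted. The mean of HSP60 was 0.56 ± 0.17 (1.47-fold, 95% interval from 0.28 to 0.84), the lowest adjusted p of all members at 0.108 (limma). With a dye term it was 0.57 (adjusted p = 0.2), and it passed in the fit to genes on at least 2 arrays, where its values were the same (adjusted p = 0.0439). Over all settings tried the adjusted p of HSP60 ran up to 0.936 (limma). That value came with replicate 3 turned once more, against the direction read from rounding. The highest in the other settings was 0.289, without centring. HSP10 (YOR020C), the lid of the same chaperonin, had 0.20, 0.31 and −0.37. HSP60 exceeded HSP10 by 0.17, 0.37 and 0.99 on the arrays, so the gap was widest on the dye swap.

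SSC1 (YJR045C), the matrix Hsp70 that also pulls proteins through the import channel, had 0.11, 0.79 and 0.38. It was positive throughout, with a mean of 0.42 ± 0.34 (1.34-fold, adjusted p = 0.249), and its percentiles were 55.4, 96.4 and 91.9. Without replicate 2 the mean was 0.24. MDJ1 (YFL016C), its J protein gene, had −0.25, 0.01 and 0.07, and MGE1 (YOR232W), its exchange factor gene, had 0.004, 0.13 and −0.27. Neither had one sign, and SSC1 exceeded MGE1 by 0.11, 0.66 and 0.64. HSP78 (YDR258C), the matrix counterpart of Hsp104, had −0.10, 0.06 and −0.17, with a mean of −0.07 ± 0.12.

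In the endoplasmic reticulum the arrays did not line up. KAR2 (YJL034W), the Hsp70 of the lumen and a standard target of the unfolded protein response, had 0.40, 0.39 and −0.05, a mean of 0.25 ± 0.26 (adjusted p = 0.434). PDI1 (YCL043C), the disulfide isomerase gene, had −0.07, 0.64 and 0.12. LHS1 (YKL073W), whose product resets Kar2, had −0.44, −0.33 and 0.68. The value of LHS1 on replicate 3 came from 1 spot and stood at percentile 99.1, whereas on replicates 1 and 2 the gene was at percentiles 3.31 and 4.26. ERO1 (YML130C), the oxidase gene that recharges Pdi1, had −0.10 and −0.23 on replicates 1 and 3 and no value on replicate 2. No member here that was measured on all arrays kept one sign.

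**Figure D3:**
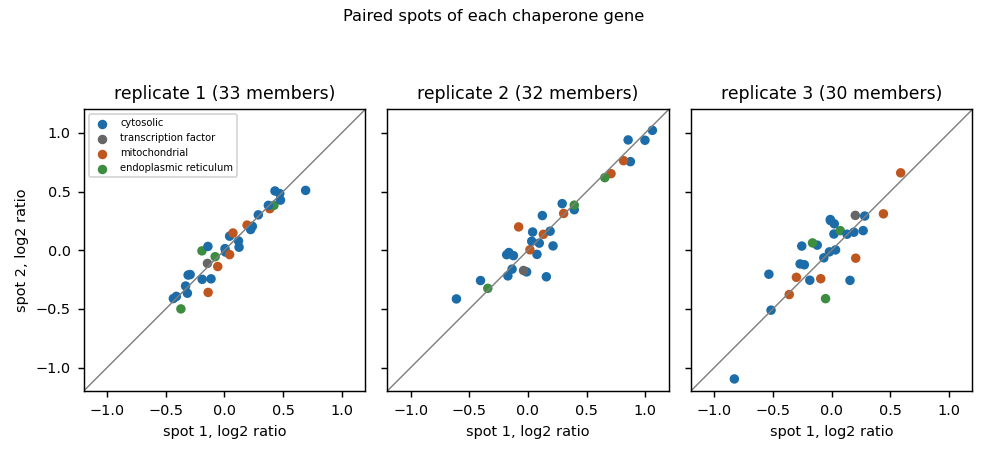
Log2 ratio of spot 2 against spot 1 of each member, 1 panel per array, with points coloured by compartment and a line where both spots are equal. The points scatter least about the line on replicate 1 and most on replicate 3, and the median gap between paired spots was 0.051, 0.069 and 0.11.

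For the typical member, paired spots lay closer together than its values on different arrays. The median gap between paired spots was 0.051, 0.069 and 0.11 on replicates 1, 2 and 3, against 0.086, 0.12 and 0.12 over all genes with paired spots. The widest gaps of a member were 0.22, 0.38 and 0.41. The median SD between arrays was 0.21 for the members.

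Set side by side, the compartments had no fixed order. The medians of the 20 cytosolic members tested were 0.08, 0.08 and −0.03 on replicates 1, 2 and 3. For the 6 mitochondrial members they were 0.06, 0.22 and −0.05, and for 3 members of the endoplasmic reticulum −0.07, 0.39 and 0.12. The endoplasmic reticulum was thus lowest on replicate 1 and highest on replicates 2 and 3. As medians of the means the values were 0.05, 0.003 and 0.23, beside 0.05 for all genes tested. Within the cytosol the means of single members ran from −0.30 to 0.60 and within mitochondria from −0.07 to 0.56. Without the Ssa genes the cytosolic median of the means was −0.04 over 16 members. These medians are descriptions of chosen genes and carry no test.

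A wider list of 72 chaperone, co-chaperone and regulator genes gave 69 with spots and 51 with a value on all 3 arrays. Of the 51, 0 passed in either direction (limma), where 0.335% of all genes tested were called higher and 0.0279% lower. At an unadjusted p under 0.05, 4 had a positive mean and 3 a negative one (limma), beside 11.1% and 2.68% of all genes tested, and their median mean was −0.02. The highest mean among them was that of ECM10 (YEL030W), a mitochondrial Hsp70 gene and the close copy of SSC1, with 0.26, 1.23 and 0.38. It followed SSC1 in its order over the arrays, and its mean was 0.62 ± 0.53 (adjusted p = 0.165). Whether the spots of ECM10 and SSC1 read each other's transcripts was not tested. TIM44 (YIL022W), which tethers Ssc1 to the import channel, had −0.13, 0.77 and 0.01. PAM18 (YLR008C) and PAM16 (YJL104W), the J protein pair of the import motor, had means of −0.25 ± 0.24 and −0.22 ± 0.10.

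Among cytosolic genes of the wider list measured on all 3 arrays the highest means were those of BTN2 (YGR142W), of aggregate sorting, and CCT6 (YDR188W), of the chaperonin ring. BTN2 had 0.20, 0.40 and 0.37, a mean of 0.32 ± 0.11 (adjusted p = 0.279), and CCT6 had 0.28, 0.27 and 0.12. Both were positive on all 3 arrays. The lowest means among these genes were those of CNS1 (YBR155W) and SGT1 (YOR057W), co-chaperone genes of Hsp90, with −0.61, −0.29 and −0.12 and with −0.56, −0.14 and −0.23. Both were negative on all 3 arrays and did not pass, at −0.34 ± 0.25 and −0.31 ± 0.22 (adjusted p = 0.302 and 0.321). The 8 genes of the chaperonin ring, which folds actin and tubulin, had a median mean of −0.01 and lay between −0.11 and 0.22. The 4 prefoldin genes tested, which deliver substrates to that ring, had medians of −0.23, −0.08 and −0.11 on the arrays, and 0 of 4 passed.

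In the endoplasmic reticulum SCJ1 (YMR214W) and JEM1 (YJL073W), J protein genes of Kar2, had the lowest means of the wider list among genes measured on all 3 arrays. SCJ1 had −0.55, −0.19 and −0.08 and JEM1 −0.25, −0.35 and 0.23, with 0 of 9 genes past the test. The value of JEM1 on replicate 3 came from 1 spot. EPS1 (YIL005W), a relative of PDI1, and ERJ5 (YFR041C), another J protein gene, were highest with means of 0.05 each, and both changed sign between arrays.

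Of the 5 regulator genes of the wider list, 3 were measured on all 3 arrays, and SKN7 and MSN4 were positive on each. SKN7 (YHR206W), a transcription factor gene of oxidative and heat stress, had 0.55, 0.13 and 0.56, a mean of 0.41 ± 0.25 (adjusted p = 0.221). Its value on replicate 3 came from 1 spot, and its spots on replicate 1 had 0.34 and 0.75. MSN4 (YKL062W) had 0.65, 0.05 and 0.35, a mean of 0.35 ± 0.30 (adjusted p = 0.306). On replicate 2 the spots of MSN4 had 0.15 and −0.04, so its positive value there rests on 1 of them. Its partner MSN2 (YMR037C) had 0.67 and 0.45 on replicates 1 and 2 and no value on replicate 3. IRE1 (YHR079C), the sensor of the unfolded protein response, had 0.51 and 0.30 on the same arrays. HAC1 (YFL031W), the transcription factor gene of that response, had 0.007, 1.88 and −0.06. It stood at percentile 99.9 on replicate 2 and at percentile 41.3 on both other arrays, and the mean of 0.61 ± 1.10 did not pass (adjusted p = 0.4).

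**Figure D4:**
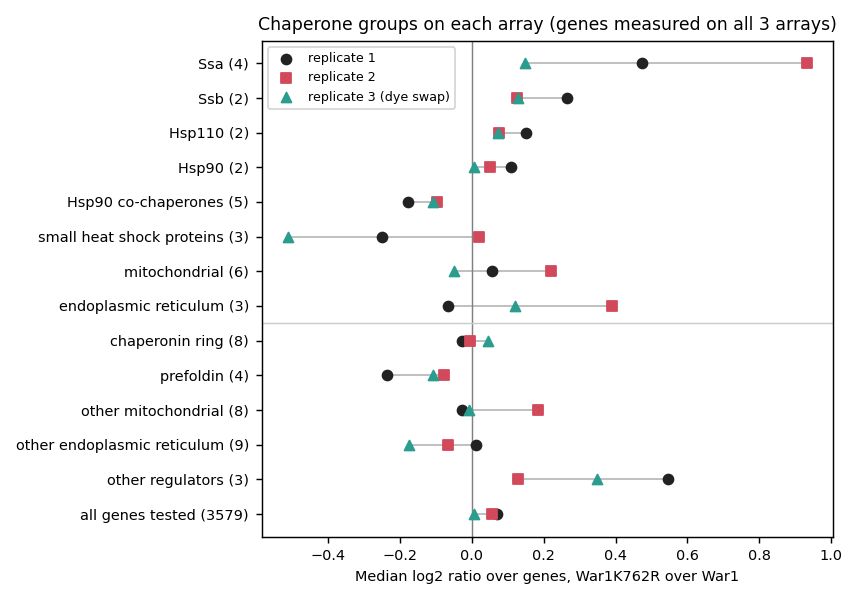
Median log2 ratio of War1K762R over War1 (horizontal axis) over the genes of each chaperone group, 1 symbol per array, with the number of genes measured on all 3 arrays in parentheses and the wider list below the line. The Ssa group has medians of 0.47, 0.93 and 0.15. The group labelled small heat shock proteins, which holds HSP12 with HSP26 and HSP42, has −0.25, 0.02 and −0.51.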

How the data were processed

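The deposited values are log2 ratios, 1 for each spot of an array. How the authors scanned, filtered and normalized the spots was not stated. Per the labels' protocols, 20 µg of total RNA was copied into Cy3- or Cy5-labelled cDNA. The treatment text of 1 channel of replicates 1 and 2 names the mutant where the source name gives War1, and the source names were used. Base and direction were read from rounding. For values smaller than 0.5 in size, the linear ratio had 3 decimals, within the rounding of the deposited logarithm, for 100% of 9077 and 9945 values of replicates 1 and 2. For 6685 values of replicate 3 it did so for 9.95%, and for 100% after a change of sign, so that column was taken as inverted before deposit.

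The median of its spots was subtracted from each array, and spots of a gene were averaged. Spots carried 1 gene symbol (11146), several (0) or none (1910). The mean of 3579 genes was tested against 0 with limma 3.58.1 in R 4.3.3 (lmFit and eBayes, two-sided, Benjamini-Hochberg over these genes, threshold 0.05). The code was checked on simulated data with differences larger than the mean of any member. That check does not show how often differences of the members' size would pass. Errors are the SD between 3 arrays, whose number limits the precision, and intervals are 95% limma intervals. Alternatives left out each array, added a dye term or array weights, changed centring, genes or spots, or turned replicate 3. Members and lists were chosen with earlier results of these data known. Named were all members, the regulators, and of the wider list the 2 highest and 2 lowest means per compartment.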

Additional observations from a re-analysis of the deposited data

How the results depend on the processing

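In the main comparison 12 genes of all passed as higher and 1 as lower (limma, adjusted p under 0.05). The higher count was 2 with a dye term, 3 with centring on the genes tested, 4 on single spots, 24 with array weights, 25 without centring and 67 on at least 2 arrays, where the lower count was 50. With replicate 3 turned once more both counts were 0. Leaving out 1 array gave 1 (without replicate 1) to 46 (without replicate 3) higher and 1 to 34 lower genes, and on the same genes, a setting chosen after seeing the data, 1 to 29 higher. The number of members called higher was 0, and 1 on at least 2 arrays (HSP60). Leaving out each array gave 0 to 1, the 1 being SSA4 without replicate 3. The median of the mitochondrial means, 0.003, ran from −0.086 to 0.16 over these leave-one-out settings, the upper end without replicate 3. The cytosolic median, 0.05, was 0.017 without replicate 1 and 0.0054 when arrays were centred on the genes tested; the endoplasmic reticulum median, 0.23, was 0.075 without replicate 2 and 0.10 on at least 2 arrays. Centring on the genes tested lowered every mean by the same amount, as for SSA1 from 0.53 to 0.48. More genes were tested without replicate 2, without replicate 3 and on at least 2 arrays. Without replicate 2 and on at least 2 arrays the endoplasmic reticulum median thus took in ERO1. On the same genes the median without replicate 2 was 0.12, and on at least 2 arrays KAR2, PDI1 and LHS1 kept their means. Other causes of these shifts were not tested. Of 30 members, 7 changed the sign of their mean without replicate 1, 3 without replicate 2, 5 without replicate 3 and 3 with a dye term. SSA1, SSA2, SSA3, SSA4, SSC1 and HSP60 stayed positive in all 13 settings. Their means ran from 0.16 for SSA3 and 0.14 for HSP60 at the lowest to 0.82 for SSA4. KAR2, SSB2, SSE1, PDI1, SSE2 and SSB1 stayed positive too, with lowest means of 0.17, 0.098, 0.036, 0.027, 0.024 and 0.022. YDJ1, SIS1, SBA1 and HSP42 stayed negative. The settings reuse the same 3 arrays and are not independent of one another. For all these members the fits on at least 2 arrays and on single spots gave the main means. The leave-one-out fits on the same genes repeated the means of the other leave-one-out fits. A gene with one sign on all 3 arrays also cannot change it when an array is left out or weighted. Much of this constancy of sign was thus fixed in advance. HSP12 went from −0.64 without replicate 2 to 0.34 with replicate 3 turned once more. Each ratio already pairs 2 cultures on its array, so the main test was itself paired. Missing spots on replicate 3 limit FES1 and HSP104 to 2 arrays.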

Other observations

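HAC1 was the regulator whose arrays differed most. Its paired spots had 1.76 and 2.01 on replicate 2, −0.01 and 0.03 on replicate 1, and −0.01 and −0.10 on replicate 3, so the high value was in both spots of 1 array. On that array KAR2 stood at percentile 84.5 of all genes tested and PDI1 at 93.8, while LHS1 was at 4.26 and JEM1 at 3.56. On replicate 1 KAR2 was at 87.5, PDI1 at 32.2, LHS1 at 3.31 and JEM1 at 13.4. On replicate 3 KAR2 was at 42.1 and PDI1 at 66.9, and LHS1 and JEM1, each from 1 spot, were at 99.1 and 80.1. Whether these genes follow HAC1 was not tested. The Ssa genes and SSC1 were also highest on replicate 2.

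On the dye swap 4 of the 30 members tested lay in the lowest 10% of all genes tested and 3 in the highest 10%, shares close to those of any genes. These counts were 3 and 4 on replicate 1. On replicate 2 they were 2 and 7, the 7 being a larger share than 10%. The 4 low on the dye swap were HSP12, HSP26, CPR6 and HSP10, named after their values were seen, at percentiles 0.07, 1.83, 6.55 and 6.58. On replicates 1 and 2 HSP10 was at percentiles 67.8 and 78.9 and CPR6 at 41.6 and 59.6. With 1 swapped array, dye and culture cannot be told apart for these values.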
